A study of Homo sapiens with 12 samples.

Results

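The 10 genes described here encode the core of polycomb repressive complex 2 (EZH2, EED and SUZ12), the DNA methyltransferases DNMT1, DNMT3A and DNMT3B with the DNMT1 cofactor UHRF1, and the methylcytosine dioxygenases TET1, TET2 and TET3. They were taken by symbol from a table of 28278 genes, and all 10 were among the 15805 genes with enough counts to be tested. For short, the 10 are called enzymes below, although EED and SUZ12 are not catalytic subunits. Expression was measured by bulk RNA sequencing in K562, an established human erythroleukaemia line whose source the labels give as bone marrow. Cells were unedited (WT) or carried a knockout of HRG1 (KO), a heme transporter encoded by SLC48A1, and were either left untreated or given 0.75 mM sodium butyrate, a histone deacetylase inhibitor. The doses came 24 h after plating and a further 48 h later, and harvest followed 6 h after the latter. The series places the samples at day 8 of differentiation. The 4 groups were untreated WT, butyrate-treated WT, untreated KO and butyrate-treated KO, with 3 libraries each, and all were grown in the same medium. How the knockout was made, the number of KO clones and whether replicates were separate cultures are not given in the sources used here, so p-values measure only the spread between these libraries, which may be technical, and a difference between KO and WT cannot be told apart from one between cell clones.

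Polycomb repressive complex 2 places the repressive mark H3K27 methylation on chromatin: EZH2 is its catalytic subunit, EED binds the finished mark and stimulates the enzyme, and SUZ12 holds the complex together. DNMT1, brought to newly copied DNA by UHRF1, restores CpG methylation after replication, while DNMT3A and DNMT3B methylate sites that were bare. The TET enzymes oxidise methylcytosine, the opening step of demethylation, and TET2, DNMT3A and EZH2 are recurrently mutated in human blood cancers.

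Between genotypes the de novo methyltransferases differed, in opposite directions, in contrasts where 22.6% (untreated) and 19.0% (treated) of all genes tested were called. DNMT3A was 3.25-fold higher in untreated KO than in untreated WT, and DNMT3B was at 0.244 of its WT level. TET2 was called higher in KO only when the treatments were averaged, close to the threshold. Under butyrate TET1 was called, dropping to 0.517 of its untreated level in WT and to 0.551 in KO. The core subunits of polycomb repressive complex 2, DNMT1 and UHRF1 passed the main test, which used no pairing, in none of these contrasts. With replicate number as a block, EZH2 and DNMT1 were called lower in KO averaged over treatments, where 7381 of 15805 genes were called. In bulk RNA, fewer cells expressing a gene and less of its RNA per cell cannot be told apart.

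DNMT3A and DNMT3B are paralogues, so their sequences are shown to let a reader see how far reads from one can be separated from the other. The stretch below runs through the catalytic centre of the methyltransferase domain, in the sense direction, with capitals at the 31 of 120 bases where the genes differ. It was read from the GENCODE v29 principal transcripts on GRCh38 and lies in exons 17 to 19 of each. For DNMT3A it spans chr2:25240437-25241576 on the minus strand, and for DNMT3B chr20:32800284-32801291 on the plus strand.
DNMT3A: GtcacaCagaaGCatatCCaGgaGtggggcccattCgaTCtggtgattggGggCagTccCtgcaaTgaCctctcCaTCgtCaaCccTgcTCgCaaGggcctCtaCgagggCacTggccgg
DNMT3B: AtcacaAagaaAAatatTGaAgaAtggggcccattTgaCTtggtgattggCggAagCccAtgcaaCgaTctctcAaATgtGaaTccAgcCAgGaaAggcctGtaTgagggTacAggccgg
Identity over this stretch was 74.2%. Over the whole transcripts the longest run of bases shared by DNMT3A and DNMT3B was 18, and no word of 50 bases occurred in both. The longest shared run was 20 bases between EZH2 and its paralogue EZH1 and 20 between TET2 and TET3. SUZ12 differed from the rest in this respect: its pseudogene SUZ12P1, which has its own row in the table, shared a run of 178 bases and 9.30% of the 50-base words of SUZ12, so SUZ12 counts are uncertain.

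The libraries held 19963594 to 30348538 counts. Expression is given as CPM, the count relative to a library size scaled by the trimmed mean of M-values, and 3 counts corresponded to 0.0953 to 0.162 CPM depending on the library. SLC48A1 had 1357 to 1945 counts in the WT libraries and 55 to 313 in the KO libraries. The erythroid regulators GATA1 (175 to 598 CPM) and TAL1 (66.3 to 248 CPM) were present in every library, as were BCR and ABL1, while the T-cell marker CD3E reached at most 3.63 CPM and the hepatocyte marker ALB at most 0.572 CPM. The monocyte marker CD14 reached at most 0.829 CPM. The epithelial marker EPCAM, at 19.3 to 74.2 CPM, and the fibroblast marker COL1A1, at 1.62 to 154 CPM, were present, and their part in the results was not tested. The first principal component, with 53.1% of the variance, separated the genotypes, and on the second, with 20.9%, replicate 1 of butyrate-treated WT (40.9) lay within the range of the untreated libraries (15.3 to 75.6). Replicate 1 of butyrate-treated KO (4.21) lay nearer to them than to replicates 2 and 3 of its group (-79.1 and -84.8).

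DNMT3A lies at chr2:25227874-25342590 on the minus strand (RefSeq, GRCh38.p14). In untreated WT it measured 15.2, 27.1 and 24.0 CPM in replicates 1, 2 and 3, and in untreated KO 62.5, 83.5 and 69.8 CPM. The butyrate-treated libraries gave 8.86, 23.0 and 23.1 CPM in WT and 45.9, 60.2 and 50.6 CPM in KO. Every KO library stood above every WT library, and the lowest value of all was that of replicate 1 of butyrate-treated WT, which rested on 171 counts. The log2 fold change of KO against WT was 1.70 (SE 0.336, adjusted p = 0.00299, edgeR quasi-likelihood test with Benjamini-Hochberg adjustment over all genes tested) in untreated cells. In treated cells it was 1.51 (SE 0.334, edgeR adjusted p = 0.00746). The call held in each of 20 alternative fits in both settings, including those that left out 1 library.

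DNMT3B, at chr20:32762385-32809356 on the plus strand, moved the other way. Its values in untreated WT were 122, 110 and 136 CPM, and in untreated KO 26.5, 35.9 and 27.2 CPM. In butyrate-treated cells they were 80.5, 184 and 184 CPM in WT and 45.3, 57.4 and 50.9 CPM in KO. No KO library reached the lowest WT value. The log2 fold change of KO against WT was -2.04 (SE 0.286, edgeR adjusted p = 0.000287) in untreated and -1.55 (SE 0.281, edgeR adjusted p = 0.00220) in treated cells, again called in each of 20 alternative fits.

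Both calls came from contrasts in which many genes differed. In untreated cells 22.6% of all genes tested passed the threshold and in treated cells 19.0%, so that 2 of the 10 enzymes called in each contrast, 1 higher and 1 lower, is a share near the background. The groups did not overlap for 5 of the 10 in untreated cells and 3 in treated cells, beside 42.3% and 33.9% of all genes. A change at least as large as that of DNMT3A was seen in 17.1% of genes in untreated cells and 15.6% in treated cells, and the matching shares for DNMT3B were 14.1% and 15.1%.

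**Figure D1:**
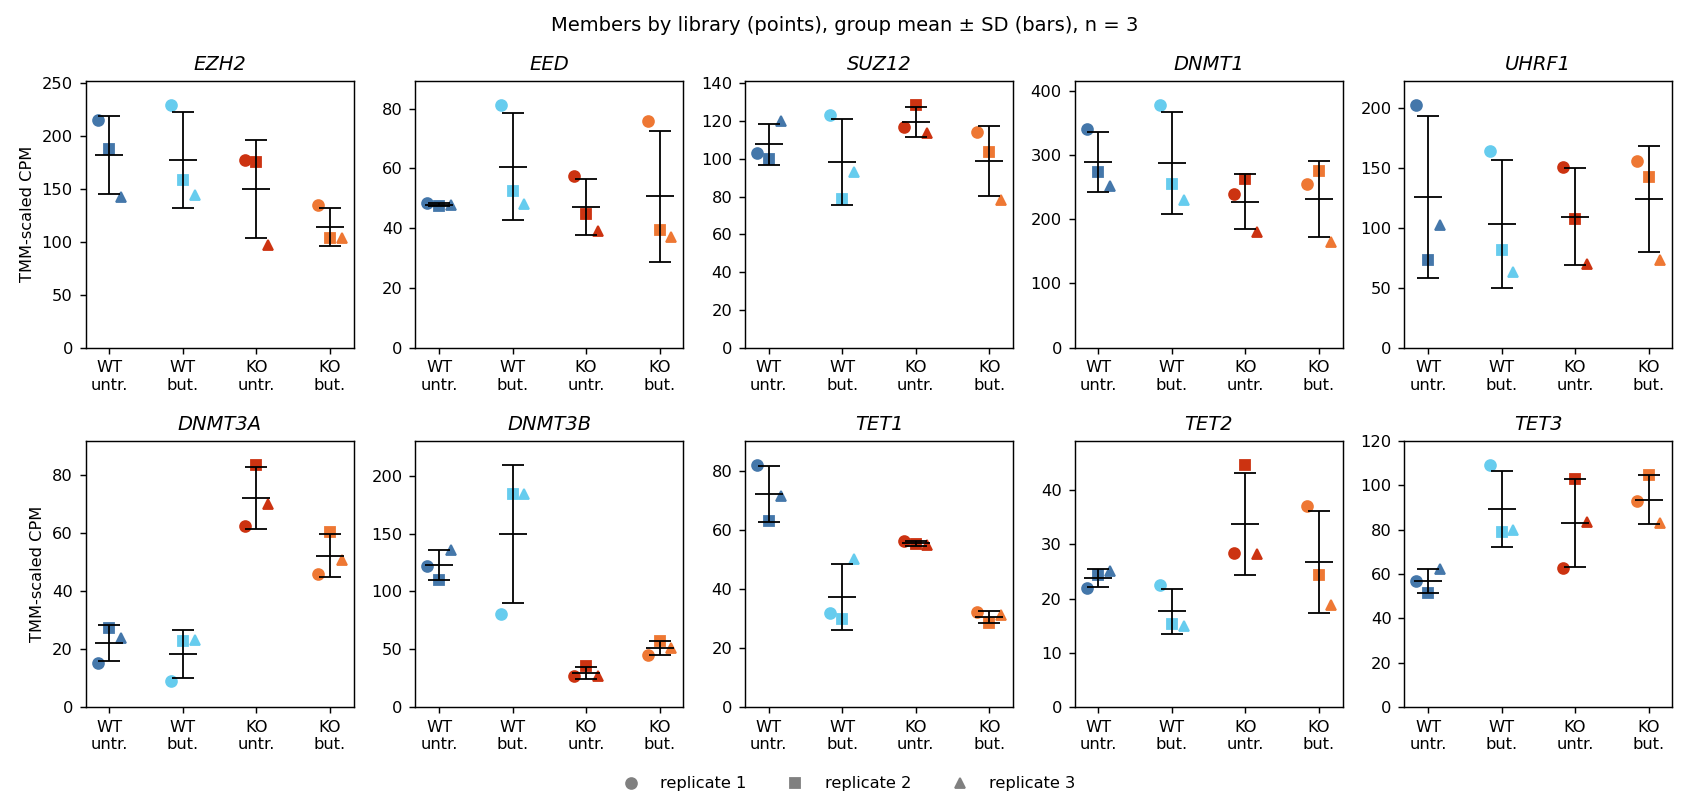
TMM-scaled CPM of each of the 10 enzymes on a linear axis from 0, with 1 point per library in the 4 groups and bars at the group mean ± SD (n = 3). DNMT3A lies between 8.86 and 27.1 CPM in the 6 WT libraries and between 45.9 and 83.5 CPM in the 6 KO libraries, and DNMT3B shows the opposite order.

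The ratio of DNMT3B to DNMT3A within a library does not depend on scaling between libraries. As a ratio of counts it was 8.03, 4.04 and 5.66 in untreated WT, 9.08, 8.01 and 7.99 in butyrate-treated WT, 0.425, 0.430 and 0.389 in untreated KO, and 0.988, 0.953 and 1.01 in butyrate-treated KO. WT cells thus held several DNMT3B counts for each DNMT3A count, untreated KO cells fewer than 1, and treated KO cells about equal numbers. The group means were 5.91 ± 2.01, 8.36 ± 0.625, 0.414 ± 0.0222 and 0.982 ± 0.0264 (SD, n = 3) in that order. These ratios are not corrected for length, and the exons of DNMT3A sum to 10.7 kb against 4.63 kb for DNMT3B. Per kilobase of exon, mean CPM in untreated KO was 6.70 for DNMT3A and 6.45 for DNMT3B. In treated KO it was 4.87 for DNMT3A and 11.06 for DNMT3B. Averaged over treatments, the log2 ratio differed by -3.43 between KO and WT, lower in 6 of 6 same-numbered pairs (two-sided exact permutation test within treatment, p = 0.005, the smallest of 400 arrangements, adjusted p = 0.02 over 4 tests). Averaged over genotypes, butyrate raised it by 0.90, or 1.87-fold, in 6 of 6 pairs (exact permutation test, p = 0.015, adjusted p = 0.03). When the same-numbered libraries were kept as pairs, the exact sign permutation gave p = 0.03125 for each, the smallest that 6 pairs allow. The adjusted p of that test was 0.0625. Every KO library lay above every WT library for DNMT3A and below every WT library for DNMT3B. The genotype result for the ratio followed from these separations and adds no support to the calls of DNMT3A and DNMT3B.

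**Figure D2:**
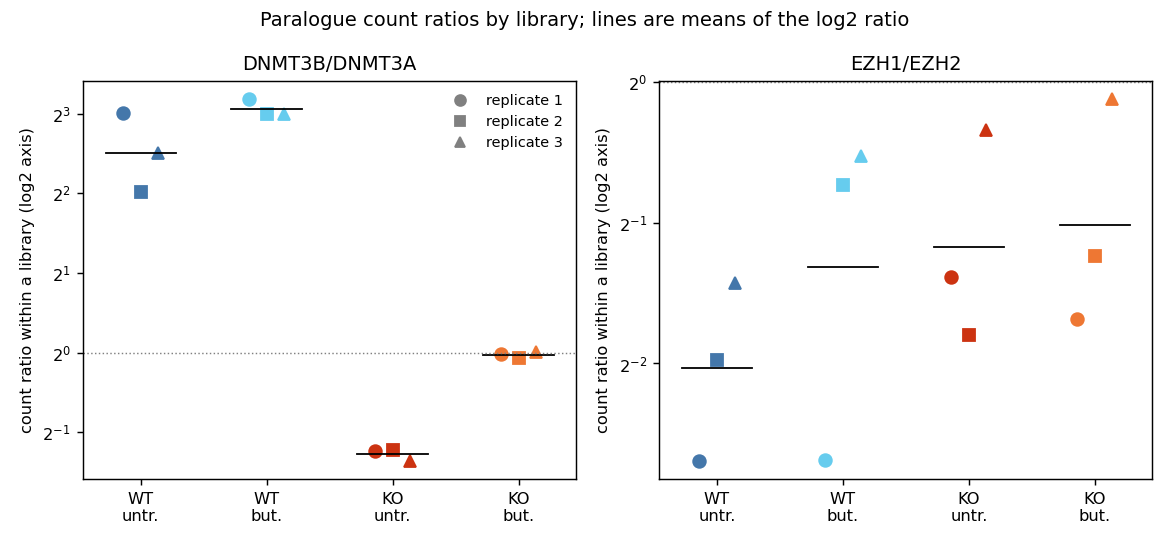
Ratio of counts within each library for DNMT3B over DNMT3A and for EZH1 over EZH2, on log2 axes, with 1 point per library and a line at the mean of the log2 ratio. The DNMT3B to DNMT3A ratio lies between 4.04 and 9.08 in WT and between 0.389 and 1.01 in KO, and the EZH1 to EZH2 ratio overlaps between all groups.

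Neither gene was called on its own under butyrate in the test without pairing. DNMT3A was lower in each treated KO library than in each untreated one, with a log2 fold change of -0.46 (SE 0.326, edgeR adjusted p = 0.471), and in WT, where the groups overlapped, it was -0.27. DNMT3B was higher in each treated KO library than in each untreated one, with a log2 fold change of 0.78 (SE 0.278, edgeR adjusted p = 0.142). Same-numbered libraries deviated together, and with replicate number as a block the edgeR adjusted p was 0.0497. Averaged over genotypes the change of DNMT3B was 0.53 (SE 0.195, edgeR adjusted p = 0.0851, and 0.0411 with the block). Without replicate 1 of butyrate-treated WT, where DNMT3B was lowest among the WT libraries, that adjusted p was 0.00426.

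TET1, at chr10:68560337-68694487 on the plus strand, was the enzyme called lower under butyrate in the main test. In WT it measured 82.2, 63.2 and 71.5 CPM untreated and 32.1, 29.8 and 50.2 CPM treated. In KO it measured 56.5, 55.3 and 55.0 CPM untreated and 32.3, 28.4 and 31.2 CPM treated. Each treated library was below each untreated library of its genotype. The log2 fold change was -0.95 (SE 0.210, edgeR adjusted p = 0.0378) in WT and -0.86 (SE 0.210, edgeR adjusted p = 0.0435) in KO. Averaged over genotypes it was -0.91 (SE 0.148, edgeR adjusted p = 0.00284), a call that held in 19 of 19 alternative fits with an adjusted p of at most 0.0117.

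Against the background, 2.35% of genes tested were called in the WT butyrate contrast, 3.40% in the KO contrast and 14.6% in the averaged one, and in each TET1 was the only 1 of the 10 called. The groups did not overlap for 2 of the 10 in WT and 3 in KO, beside 21.7% and 24.4% of all genes. A fall or rise at least as large was seen in 18.9%, 22.1% and 18.6% of genes. The calls within a single genotype were close to the threshold. With 1 library left out, the WT call was kept without replicate 1 (edgeR adjusted p = 0.0414) or 3 (0.0167) of butyrate-treated WT or replicate 1 of butyrate-treated KO (0.0410), and leaving out any of the other 9 gave 0.0546 to 0.169. The KO call was kept without replicate 1 or 3 of butyrate-treated WT (edgeR adjusted p = 0.0288 for each), and leaving out any of the other 10 gave 0.0512 to 0.185. Across these fits TET1 stayed lower, by a log2 fold change of -1.23 to -0.82 in WT and -0.90 to -0.81 in KO.

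**Figure D3:**
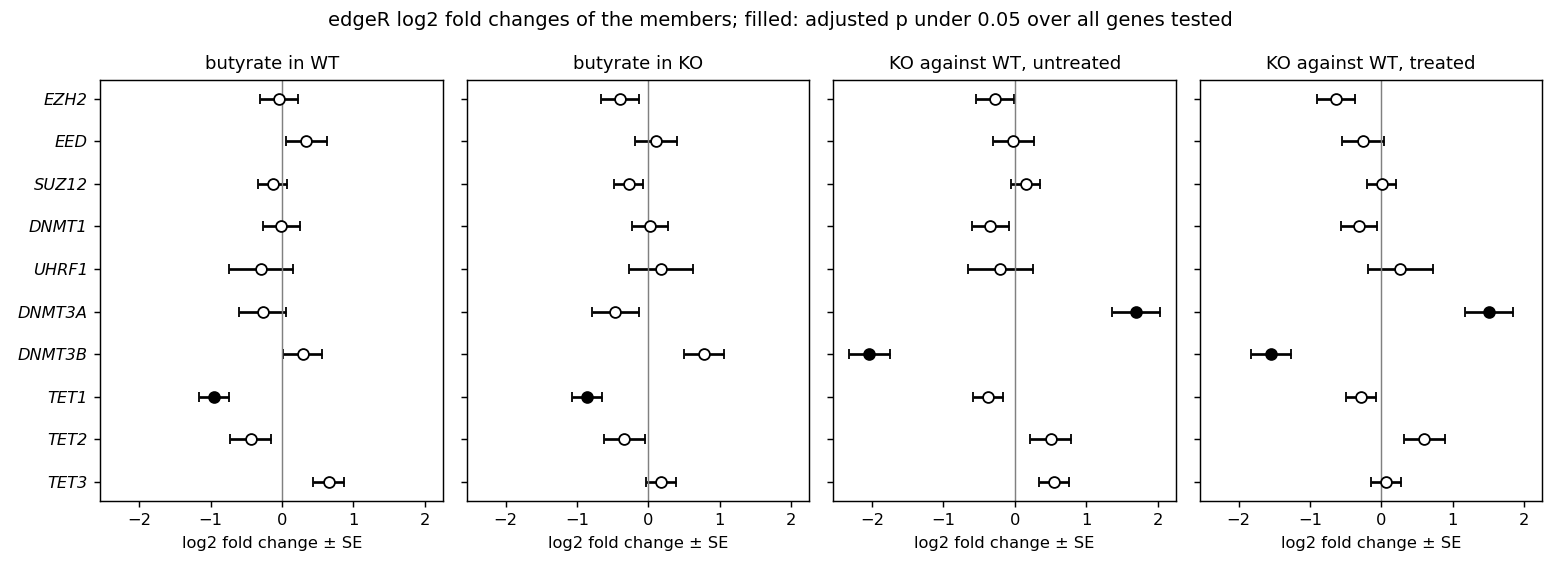
Log2 fold changes with their standard errors for the 10 enzymes in 4 contrasts, from edgeR. Filled points passed an adjusted p of 0.05 over all genes tested: TET1 for butyrate in WT and in KO, and DNMT3A and DNMT3B for KO against WT in untreated and treated cells.

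TET2 and TET3, the other dioxygenases, gave smaller and less certain differences. TET2, at chr4:105145875-105279803, measured 22.0, 24.3 and 25.1 CPM in untreated WT, 22.4, 15.4 and 15.0 CPM in treated WT, 28.4, 44.6 and 28.2 CPM in untreated KO and 37.0, 24.3 and 18.8 CPM in treated KO. The untreated KO libraries stood above the untreated WT libraries, and the treated groups overlapped. Averaged over treatments, TET2 was higher in KO, with a log2 fold change of 0.55 (SE 0.203, edgeR adjusted p = 0.0498), a contrast in which 36.6% of all genes tested were called and 3 of the 10 enzymes, with DNMT3A and DNMT3B. That call was kept in 6 of 19 alternative fits. With 1 library left out it was kept without replicate 1 of butyrate-treated WT (edgeR adjusted p = 0.0239) or replicate 3 of butyrate-treated KO (0.0283), and leaving out any of the other 10 gave 0.0517 to 0.164.

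TET3, at chr2:73983631-74135498, measured 56.7, 51.6 and 62.2 CPM in untreated WT and 109, 78.8 and 79.9 CPM in treated WT. In KO it measured 62.7, 103 and 83.5 CPM untreated and 93.1, 105 and 82.8 CPM treated. The untreated WT libraries were the lowest of the 12. The log2 fold changes of TET3 were 0.65 for butyrate in WT (SE 0.212, edgeR adjusted p = 0.133) and 0.55 for KO against WT in untreated cells (SE 0.212, edgeR adjusted p = 0.0837), neither past the threshold. Averaged over treatments and without replicate 1 of every group, TET3 was called higher in KO (0.46, edgeR adjusted p = 0.0264). That fit called 6774 of 16460 genes in this contrast. Leaving out replicate 1 of untreated KO alone took the untreated genotype difference to 0.72 with an edgeR adjusted p of 0.0392.

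EZH2, at chr7:148807383-148884291 on the minus strand, was the core polycomb subunit with the largest genotype difference. It measured 215, 188 and 142 CPM in untreated WT, 229, 158 and 144 CPM in treated WT, 177, 175 and 96.5 CPM in untreated KO and 135, 103 and 103 CPM in treated KO. Among treated libraries the KO values lay below the WT values. The log2 fold change there was -0.64 (SE 0.269, edgeR adjusted p = 0.123), and with replicate number as a block it was -0.62 with an adjusted p of 0.0182. Averaged over treatments it was -0.46 (SE 0.190, edgeR adjusted p = 0.0774, and 0.00841 with the block), and leaving out replicate 3 of untreated WT gave an edgeR adjusted p of 0.04998. EZH2 lies on chromosome 7, where the median log2 fold change of 729 other tested genes was -0.78 in untreated and -0.86 in treated cells, and 37.3% and 38.8% of them were called lower in KO. EZH2 itself was thus less reduced than the middle gene of its chromosome, and the part of chromosome copy number in this was not tested.

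EED, at chr11:86244753-86287615, and SUZ12, at chr17:31937007-32001038, were not called in any contrast. The CPM of EED ranged over 47.3 to 48.3 in untreated WT, 48.2 to 81.2 with butyrate in WT, 39.1 to 57.4 in untreated KO and 36.9 to 76.0 with butyrate in KO, so the groups overlapped. The CPM of SUZ12 ranged over 100 to 120, 78.9 to 123, 113 to 128 and 78.3 to 114 in the same order. EZH1, the alternative catalytic subunit, was not called either: its count ratio to EZH2 was 0.154, 0.255 and 0.371 in untreated WT, 0.155, 0.602 and 0.693 in treated WT, 0.383, 0.288 and 0.788 in untreated KO and 0.311, 0.425 and 0.918 in treated KO. The groups overlapped in this ratio, with a log2 difference of 0.44 for butyrate (exact permutation test, p = 0.35, adjusted p = 0.35) and 0.58 for genotype (p = 0.26, adjusted p = 0.347).

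The maintenance pair was likewise uncalled. DNMT1, at chr19:10133346-10194953 on the minus strand, measured 341, 274 and 253 CPM in untreated WT, 378, 255 and 230 CPM in treated WT, 240, 263 and 180 CPM in untreated KO and 255, 275 and 165 CPM in treated KO. Averaged over treatments, DNMT1 gave a log2 fold change of -0.33 in KO with an edgeR adjusted p of 0.180, and of 0.0421 with replicate number as a block. UHRF1, at chr19:4903080-4962154, varied more between replicates than any difference between groups: 202, 72.9 and 102 CPM in untreated WT, 164, 81.8 and 63.1 CPM in treated WT, 151, 107 and 69.6 CPM in untreated KO and 156, 142 and 73.2 CPM in treated KO. No enzyme was called for a difference in the butyrate response between genotypes, where the 10 log2 differences ran from -0.48 to 0.49. In that contrast edgeR called 0 of all genes tested, with 658 at an unadjusted p under 0.05, and DESeq2 called 86 genes.

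Per kilobase of exon, which allows levels of different genes to be set side by side, EZH2 and DNMT1 had the highest means in all 4 groups and TET2 the lowest, though TET2 overlapped with DNMT3A in both WT groups. These levels use the summed exon length of each gene, and another transcript length would shift them. In untreated WT EZH2 stood at 59.3 ± 12.03 CPM per kb and DNMT1 at 53.0 ± 8.48 (SD, n = 3), which overlapped. DNMT3B followed at 26.5 ± 2.80 CPM per kb, overlapping with UHRF1 and SUZ12, and DNMT3A stood at 2.06 ± 0.575 CPM per kb. In untreated KO the levels of DNMT3A (6.70 ± 0.991 CPM per kb) and DNMT3B (6.45 ± 1.13) overlapped.

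The genes beside DNMT3A and DNMT3B were compared next, since K562 is aneuploid and an edited line can differ in copy number. For DNMT3A the 5 nearest tested genes on each side had a median log2 fold change of 0.08 in untreated and 0.10 in treated cells, with 0 of 10 called in either. The gene next to it, DTNB, had a log2 fold change of 1.95 in untreated cells that did not pass the test (edgeR adjusted p = 0.208). For DNMT3B the neighbours' median was -0.35 and -0.23, with C20orf203 called higher in untreated cells and no other neighbour called. Of the 10 neighbours of TET2, 2 were called higher in untreated and 3 in treated cells, and 8 had a positive log2 fold change in each. Their median was 0.45 in untreated and 0.28 in treated cells, beside 0.50 and 0.60 for TET2 itself and 0.13 and 0.00 for chromosome 4. The part of copy number in the TET2 value was not tested.

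**Figure D4:**
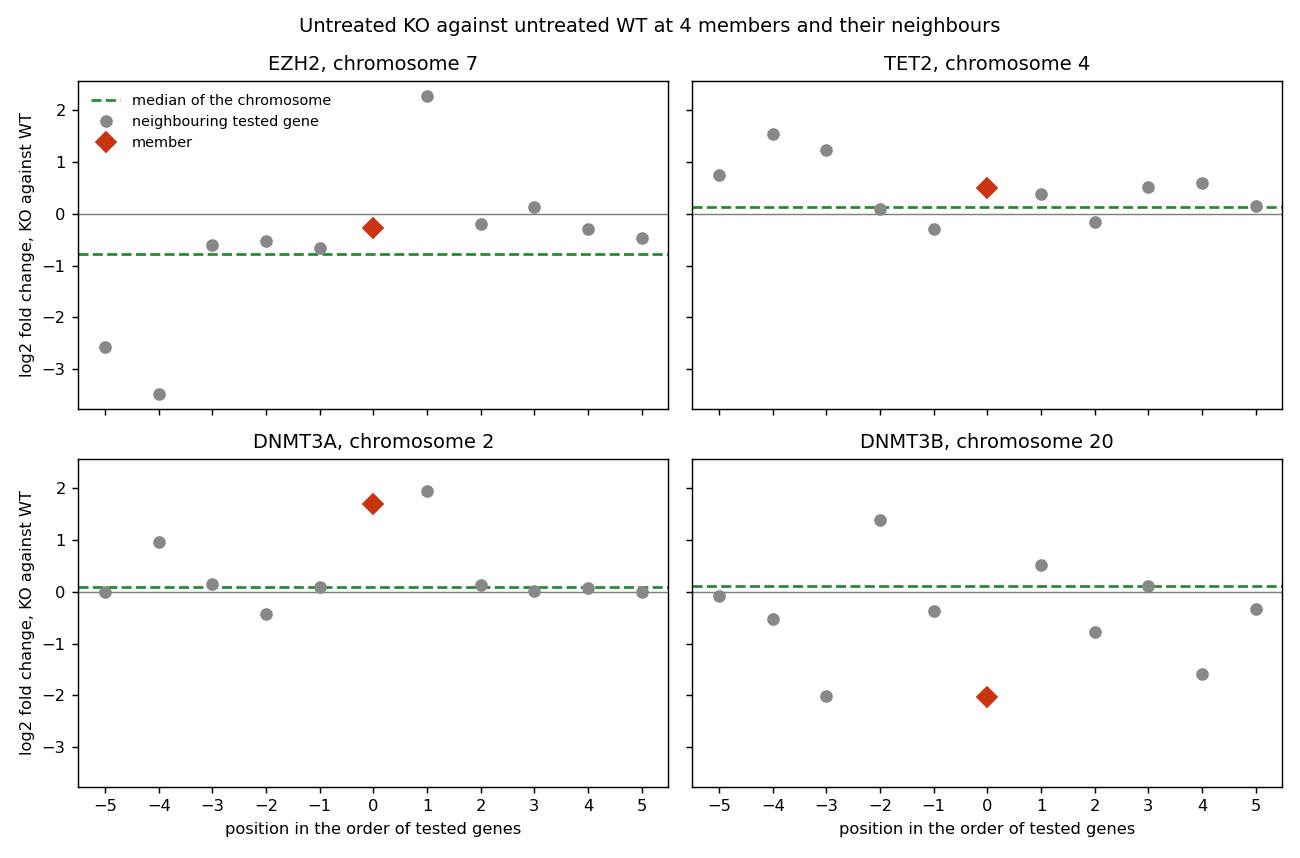
Log2 fold change of KO against WT in untreated cells for EZH2, TET2, DNMT3A, DNMT3B and the 5 nearest tested genes on each side. Genes follow their order along the chromosome, and a line marks the chromosome median. In this contrast DNMT3A and DNMT3B were called, and EZH2 and TET2 were not. DNMT3A at 1.70 stands above 9 of its 10 neighbours, with DTNB at 1.95 the exception, and DNMT3B at -2.04 is the lowest in its panel, close to an uncalled neighbour at -2.02, while TET2 and EZH2 lie among theirs.

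The genes whose profiles over the 12 libraries were most like each called enzyme were ranked by the root mean square difference of centred log2 CPM among 10153 candidates. For DNMT3A they were COL4A5 (0.232), LIG4 (0.233) and SCMH1 (0.265), against a spread of DNMT3A itself of 0.989 (SD of log2 CPM). For DNMT3B they were LAMP2 (0.287), SKAP2 (0.304) and ABHD11 (0.328), and for TET1 they were SPAG5 (0.208), TMEM192 (0.209) and INTS10 (0.210). ZNF689 (0.153), PPP4R3A (0.155) and GTSE1 (0.156) were nearest to TET2.

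The counts of other pathway genes called between genotypes are to be read against the same 22.6% of all genes in untreated and 19.0% in treated cells. Of 11 tested partners of polycomb repressive complex 2, 2 were higher in untreated KO, namely JARID2, which helps to recruit the complex (log2 fold change 1.00, edgeR adjusted p = 0.0165), and RBBP4, a histone-binding subunit (0.83, edgeR adjusted p = 0.0197). RBBP4 was also higher in treated KO (0.72, edgeR adjusted p = 0.0419), and EPOP rose under butyrate in KO (0.97, edgeR adjusted p = 0.0497). The median of these partners in untreated cells was 0.13, beside 0.02 for all genes. Of 19 genes of polycomb repressive complex 1, PHC3 (0.90) and RING1 (0.83), a ubiquitin ligase, were among 3 higher in untreated KO and CBX2, a reader of the H3K27 mark, was lower (-0.72, edgeR adjusted p = 0.0250). In treated cells PHC2 (0.81) and KDM2B (0.73) were higher and CBX2 was again lower (-0.72, edgeR adjusted p = 0.0286).

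BAP1, the deubiquitinase that removes the mark of polycomb repressive complex 1, was the only 1 of 5 tested opposing enzymes to be called, a share near the 22.6% and 19.0% of all genes. It was higher in KO by 0.65 (edgeR adjusted p = 0.0346) in untreated and 0.80 (edgeR adjusted p = 0.0156) in treated cells, on chromosome 3, which also holds PHC3 and whose other genes had a median of 0.45 averaged over treatments. Of 17 tested partners, readers and repair factors of DNA methylation, 2 were higher and 3 lower in untreated KO, where 22.6% of all genes were called. HELLS, a chromatin remodeller needed for normal methylation, rose by 0.96 and GADD45A by 0.94, while the methyl-CpG binders MBD1 and ZBTB33 fell by 1.10 and 1.00. In treated cells GADD45A was higher by 0.84, and MBD1 was lower (-1.11). MBD1 lies on chromosome 18, whose other genes had a median of -0.58 averaged over treatments, and ZBTB33 on chromosome X, with a median of -0.27.

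Under butyrate, edgeR called 2.35% of all genes tested within WT, 3.40% within KO and 14.6% averaged over genotypes. It called none of the 19 genes of polycomb repressive complex 1 within WT or within KO. At an unadjusted p under 0.05 there were 5 and 3 of them, and DESeq2 called 4 and 1. Averaged over genotypes, RYBP (0.73) and CBX2 (0.66) were higher and PCGF6 lower (-0.83). Of the 17 DNA methylation partners edgeR called 0 within either genotype, with 4 and 2 at an unadjusted p under 0.05 and 2 and 1 called by DESeq2. Averaged over genotypes the repair glycosylase MBD4 was higher by 0.62 (edgeR adjusted p = 0.0150) and CDCA7, the partner of HELLS, lower by a log2 fold change of -0.67 (edgeR adjusted p = 0.00981). DNMT3L, an inactive cofactor of the de novo enzymes, was also called (edgeR adjusted p = 0.0438) but on low counts: 0, 3 and 2 in untreated WT, 0, 28 and 114 in treated WT, 1, 4 and 22 in untreated KO and 11, 41 and 98 in treated KO.

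Of 20 genes of S phase and proliferation, edgeR called 0 in untreated KO against WT (22.6% of all genes), with 2 at an unadjusted p under 0.05 and 1 called by DESeq2. In treated cells (19.0% of all genes) it called 2, both lower in KO: MCM7 (-1.11), which lies on chromosome 7, and CDK1 (-0.85). Under butyrate edgeR called none of the 20 in either genotype, where 2.35% and 3.40% of all genes were called in WT and KO. At an unadjusted p under 0.05 there were 0 and 4, and DESeq2 called 0 in both.

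The promoters of DNMT3A and TET1 are shown with each CpG, the substrate of these enzymes, in capitals. DNMT3A was called higher in KO in untreated and in treated cells, and TET1 was called lower under butyrate in WT and in KO. Each is the 250 bases before a RefSeq start on GRCh38.p14, in the direction of the gene, chr2:25342591-25342840 on the minus strand for DNMT3A and chr10:68560087-68560336 on the plus strand for TET1.
DNMT3A: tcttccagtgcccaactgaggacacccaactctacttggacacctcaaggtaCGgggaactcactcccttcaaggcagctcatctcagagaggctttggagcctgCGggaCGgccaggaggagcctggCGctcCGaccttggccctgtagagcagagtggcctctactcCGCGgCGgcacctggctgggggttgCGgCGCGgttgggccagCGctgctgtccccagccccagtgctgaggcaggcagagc
TET1: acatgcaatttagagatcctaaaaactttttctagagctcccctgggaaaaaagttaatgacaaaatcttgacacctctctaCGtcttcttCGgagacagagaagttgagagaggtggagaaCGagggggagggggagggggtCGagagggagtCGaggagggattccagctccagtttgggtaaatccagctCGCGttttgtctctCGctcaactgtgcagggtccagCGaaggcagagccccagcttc
The DNMT3A window held 12 CpGs and that of TET1 9, beside a median of 11 over 35116 listed windows. Among the 10 enzymes, 7 reached that median, led by EZH2 with 38, TET3 with 37 and SUZ12 with 34. For each enzyme only the listed window nearest to the start of its principal transcript was used. DNMT3A had 6 listed windows, the others with 15 to 33 CpGs, and another window of TET2 held 34. Of all 22 listed windows of the enzymes, 18 reached the median. On either strand, the E2F words TTTCCCGC, TTTCGCGC, TTTGCCGC or TTTGGCGC occurred in 2 of the 10 windows, those of SUZ12 and UHRF1, and in 2.79% of all windows. The word CCAAT occurred in 5 of 10 (32.0% of all windows), the Sp1 word GGGCGG in 4 (42.6%), the word TTTGAA of the cell cycle homology region in 2 (13.3%) and the cyclic AMP response word TGACGTCA in 0 (1.65%). Of all 22 listed windows of the enzymes, 13 held the Sp1 word, among them windows of DNMT3A and TET2 that were not used here. Words of different factors can overlap within a window. Only an internal start of DNMT3B was listed, 17467 bases from the start of its principal transcript. Its window is not shown but is counted among the 10, and it is 1 of the 5 with CCAAT.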

How the data were processed

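RNA sequencing counts of 12 K562 libraries were analysed. The authors deposited 1 table of raw counts per gene symbol, and the unit was read from its whole numbers. Per the submitters' processing notes, FastQC 0.12.1, STAR 2.7.11b and build hg38 were used, while the counting tool, annotation and strand setting are not given in the sources used here. Groups and replicate numbers came from the sample titles. Replicates differed beyond sampling noise: dividing chi-square by its degrees of freedom gave at least 37.2 for any replicate pair.

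Counts were fitted with edgeR 4.0.16 in R 4.3.3 (quasi-likelihood, TMM scaling, filterByExpr with a minimum count of 10, a mean per group, all 12 libraries), with Benjamini-Hochberg adjustment over 15805 genes and a threshold of 0.05. Ratios of paralogues were compared by exact permutation of log2 count ratios with 0.5 added. Alternatives were DESeq2 1.42.0, other scalings and filters, a replicate block, the compared libraries alone, and leaving out libraries. In all 4 contrasts between 2 groups, same-numbered libraries deviated together, with correlations of 0.147 to 0.595. Other-numbered libraries gave -0.512 to 0.343, and the 2 ranges overlapped for KO against WT in treated cells. The ranges also overlapped between groups that differed in both genotype and treatment. For untreated WT with treated KO, same-numbered libraries gave -0.00298 to 0.261 and other-numbered ones -0.273 to 0.174. For treated WT with untreated KO, same-numbered libraries gave 0.0265 to 0.355 and other-numbered ones -0.343 to 0.198. The numbers were taken to pair the libraries in the replicate block, which the main fit left out. Named genes are the 10 enzymes, EZH1, the 2 largest called rises and falls per list and contrast, the 3 nearest profiles of each called enzyme, and called neighbours. The enzymes and lists were chosen with earlier results of these data known. The limit of 3 counts covers counting error only, while the SE of each log2 fold change includes the spread between libraries. A few list genes and 1 gene list are not reported here.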

Additional observations from a re-analysis of the deposited data

How the results depend on the processing

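Of 70 pairs of enzyme and contrast, 25 changed sign in at least 1 alternative, the largest of them with a log2 fold change of size 0.47, and none of these was among the 18 pairs with an unadjusted p under 0.05. The number of enzymes called for butyrate in WT went from 1 to 0 with library size alone, with the 6 compared libraries alone and without replicate 1 of every group, and ran from 0 to 1 with single libraries left out. For butyrate in KO it went from 1 to 0 with library size alone or with at least 10 counts in every library and to 2 with the replicate block or without replicate 1 of every group, and ran from 0 to 2 with single libraries left out. For butyrate averaged over genotypes it went from 1 to 2 with at least 10 counts in every library or the replicate block. It went to 3 with DESeq2, which called 3427 of 15805 genes, or without replicate 1 of every group, which called 4735 of 16460. With single libraries left out it ran from 1 to 2, the 2 being without replicate 1 of butyrate-treated WT. For genotype averaged over treatments it went from 3 to 5 with the replicate block, which called 7381 of 15805 genes. It ran from 2 to 4 with single libraries left out. The cause was not tested. Paired by replicate number, the DNMT3B to DNMT3A log2 ratio kept its values of 0.90 for butyrate and -3.43 for genotype with an adjusted p of 0.0625, since 6 pairs allow no p below 0.03125, and with single libraries left out it ran from 0.78 to 1.02 and from -3.55 to -3.31. The replicate block changed no call other than those given for DNMT3B, EZH2, DNMT1 and these ratios. With 10 neighbours on each side in place of 5, the median log2 fold change in untreated cells became 0.047 beside DNMT3B and -0.23 beside TET1, and in treated cells 0.12 beside SUZ12. Over all genes, those called for butyrate in WT numbered 372, and 1331 with DESeq2, 1361 with the block, 63 with the 6 compared libraries and 1884 without replicate 1 of every group. For butyrate in KO they numbered 537, and 304 under a filter of 10 counts in every library, 1538 with DESeq2, 1852 with the block and 2164 without replicate 1 of every group. With single libraries left out they ran from 43 to 1243 in WT and from 48 to 1039 in KO. For KO against WT, 3574 genes were called in untreated cells and 2334 under a filter of 10 counts in every library, and 3009 in treated cells, with 1947, 4612 and 1802 under that filter, the block and the 6 libraries. Averaged over genotypes 2305 genes were called for butyrate, 4196 with the block and 4735 without replicate 1 of every group, with a range of 1198 (without replicate 2 of butyrate-treated WT) to 3795 (without replicate 1 of it) when single libraries were left out, and the interaction had 0, with 2 without a filter, 1 with at least 10 counts in every library, 86 with DESeq2, 3 with the block and 9 without replicate 1 of every group. The number of genes tested differed between these fits, so the counts called are not shares of the same total. It was 15805 in the main, DESeq2 and block fits and 11701 under the filter of 10 counts in every library. It was 14248 to 15368 with the 6 compared libraries and 16460 without replicate 1 of every group. Library size alone moved the median of all genes by 0.12 on the log2 scale for butyrate in KO. The depth of 171 to 713 counts for DNMT3A in WT limits the precision of its ratio. Calls of single list genes were not refitted with libraries left out.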

Other observations

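The library numbered 1 held the highest CPM of its group in all 4 groups for EZH2, EED and UHRF1 and the lowest for DNMT3A, a pattern chosen after the values were seen. Among all genes tested, 10.8% were highest in that library in every group and 12.1% lowest. Of the 20 genes of S phase and proliferation 7 were highest there in every group (MCM2, MCM3, MCM5, MCM7, PCNA, RRM2 and CCNA2). PCNA, the sliding clamp of DNA replication, measured 157, 81.5 and 93.3 CPM in untreated WT, 147, 99.9 and 76.3 CPM in treated WT, 243, 133 and 108 CPM in untreated KO and 204, 147 and 122 CPM in treated KO. Leaving out this library from every group kept the DNMT3A and DNMT3B genotype calls and ended the TET1 call for butyrate in WT (-0.77, edgeR adjusted p = 0.0674). With 16460 genes tested in that fit, 6774 were called for genotype averaged over treatments and 4735 for butyrate averaged over genotypes. TET3 was then called higher in KO averaged over treatments (0.46, edgeR adjusted p = 0.0264). In untreated cells TET3 was called too (0.69, edgeR adjusted p = 0.0297, 4314 genes called). TET2 then fell under butyrate averaged over genotypes by 0.74 on the log2 scale (edgeR adjusted p = 0.0125). DNMT3B rose in that contrast (0.67, edgeR adjusted p = 0.00696). Within KO it rose under butyrate by 0.77 (edgeR adjusted p = 0.035, 2164 genes called).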
